A study of Oryza sativa Japonica Group with 15 samples.

Results

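The genes described here are the 150 rice genes whose transcript levels followed that of CPS4 (Os04g0178300) most closely from library to library within the treatment groups of a root transcriptome study. They were chosen among 14024 rows with a rice gene identifier and an average of 20 or more normalised reads, out of 36747 rows in the table. For each row the Pearson correlation with CPS4 was taken over 15 libraries, on log2(value + 1) after the mean of each group had been subtracted, and the 150 highest rows were kept, with CPS4 itself left out. The members were thus chosen by their measured deviations from the group means, and their correlations are given below as a description with no test. Subtracting the group means removes the average effect of a treatment, so what the members share with CPS4 by choice is the spread between replicate pools of the same treatment.

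The libraries came from roots of young Kitaake plants, a cultivar of Oryza sativa Japonica Group, and the leaves, not the roots, had been sprayed in 0.1% Tween 20 with compounds that induce disease resistance. There were 5 groups of 3 libraries, and each library was made from 4 plants pooled as 1 sample. Mock plants were mock-treated, BABA plants sprayed with 3.5 mM beta-aminobutyric acid, and ASM plants with 250 µM acibenzolar-S-methyl, an analogue of salicylic acid that some labels call BTH. These plants and the PA1x group, which had 300 µM piperonylic acid, were sprayed on day 13 after transplanting, the PA2x group had 300 µM piperonylic acid on days 7 and 13, and all roots were taken on day 14. The labels name no spray of Mock plants on day 7, so the schedule of PA2x was not matched by a control. Piperonylic acid is known as an inhibitor of cinnamate 4-hydroxylase in the phenylpropanoid pathway. The pools are separate samples of plants grown alike, and p-values measure the spread between such pools.

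Rice defends itself with labdane-related diterpenoids, among them momilactones, phytocassanes and oryzalexins, which accumulate in leaves upon infection and are also released from roots. Their carbon comes from the plastid methylerythritol phosphate (MEP) pathway, whose products are joined to geranylgeranyl diphosphate, and this is folded by class II diterpene cyclases (CPS enzymes) and then class I synthases (KSL enzymes) before cytochromes P450 and dehydrogenases finish the molecules. CPS4 makes syn-copalyl diphosphate, the entry into momilactones, and lies in a gene cluster on chromosome 4, while a second cluster on chromosome 2 serves phytocassanes.

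CPS4 differed several-fold between pools of the same treatment. Its normalised read counts in replicates 1, 2 and 3 were 855, 1091 and 367 in Mock, 950.3, 924 and 234 in BABA, 382, 862 and 1531 in ASM, 828, 714 and 333 in PA1x and 1495, 1896 and 389 in PA2x. The lowest library was replicate 3 in Mock, BABA, PA1x and PA2x and replicate 1 in ASM, and the highest library of a group held between 2.49 (PA1x) and 4.87 (PA2x) times the lowest. All groups overlapped with Mock. Group means were 771 ± 369 in Mock, 703 ± 407 in BABA, 925 ± 577 in ASM, 625 ± 259 in PA1x and 1260.1 ± 781 in PA2x (SD, n = 3 each). With limma over all genes, CPS4 passed in no comparison. The log2 difference from Mock was 0.56 (95% interval -0.83 to 1.95, adjusted p = 0.812) for PA2x, and PA2x minus PA1x was 0.83 (95% interval -0.56 to 2.22, adjusted p = 0.516). Both intervals reach from a fall to a rise.

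**Figure D1:**
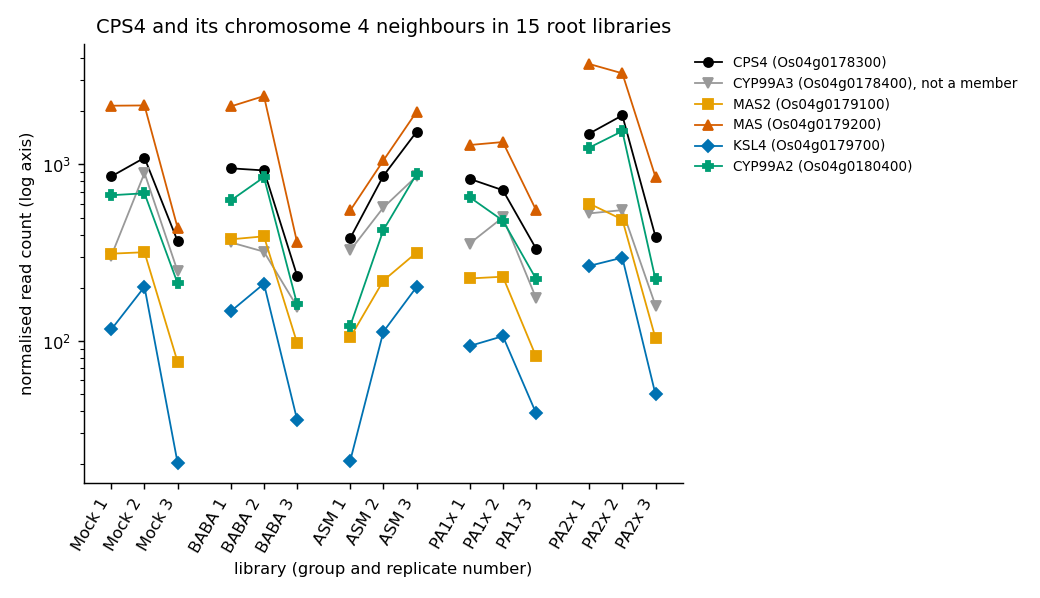
Normalised read counts (log axis) of CPS4 and 5 neighbours on chromosome 4 in the 15 libraries, by group and replicate number, with lines joining the 3 libraries of a group. Within each group the CPS4 line and those of its 4 member neighbours reach their lowest point in the same library, replicate 3 in all groups but ASM, where it is replicate 1.

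The libraries low in CPS4 were low in the members by the way these were chosen, and the count shows how far this went. In each of the 5 libraries lowest in CPS4, all 150 members had their lowest value of the group, where 35.4% to 39.1% of all eligible rows did. The median member lay 0.68 below its group mean in Mock replicate 3, 0.95 in BABA replicate 3, 0.67 in ASM replicate 1, 0.41 in PA1x replicate 3 and 0.98 in PA2x replicate 3, on the log2 scale. The median of all eligible rows lay at most 0.0137 from its group mean in any library. The labels do not say that a replicate number marks a shared day or batch, and 4 of the 5 low libraries carry the number 3. Depth was compared with these deviations: recovered totals ran from 4130194 to 9480830 reads, and CPS4 deviations had r = -0.20 with log2 depth deviations (exact permutation within groups, two-sided p = 0.578, n = 15; Spearman rho = -0.24, p = 0.489; adjusted p = 0.678 for each over 4 relations). Without BABA replicates 1 and 3, the libraries whose depth lay farthest from their group mean, r was 0.22 (exact permutation p = 0.616). Of 6 root marker genes, RCc3, a root-specific protein, had between 4391 and 13510 normalised reads, and the lowest, PIP2;5, had between 52 and 188 and was above 0 in every library, while 7 green tissue genes summed to between 9.55 and 330 reads per library. In bulk roots, fewer cells of a type and less RNA per cell cannot be told apart in any of these values.

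**Figure D2:**
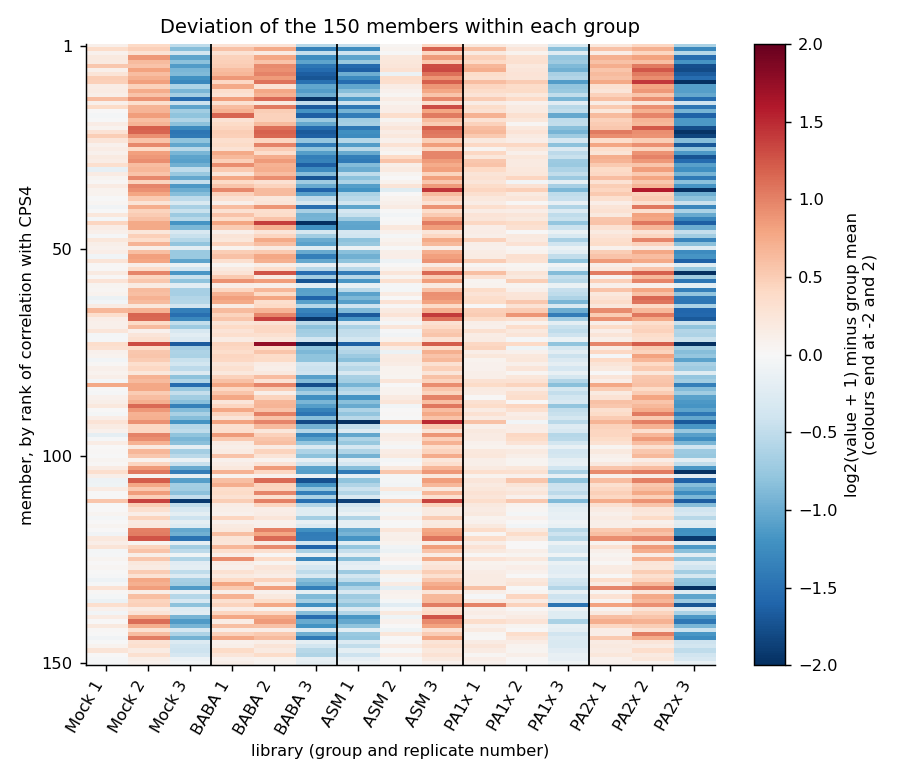
Deviation of each of the 150 members (rows, by rank of correlation with CPS4) from its group mean on the log2(value + 1) scale in the 15 libraries (columns). The 5 libraries lowest in CPS4 form the blue columns, and members differ in depth of colour, not in which library is low.

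Correlations with CPS4 ran from 0.952 to 0.993 among members, with a median of 0.966. The threshold did not fall in a gap: the last members were Os02g0620400 (r = 0.951755), Os02g0749500 (0.951624) and Os10g0320400 (0.951515), and the first rows outside were Os01g0628700 (0.951462), Os09g0281700 (0.951339) and Os07g0587300 (0.951239). In all, 479 of the 14024 rows had r of at least 0.9 and 1146 at least 0.8, against 99 and 507 at or below the same values with a minus sign. The members also followed each other: over their 11175 pairs the median r was 0.950, the lowest 0.831, and 5.1% of pairs were below 0.9. The 15 points of every such correlation come from the same libraries. When the 150 highest rows were chosen without all libraries numbered 3, 30 of them were members.

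Of the 150 members, 27 were on a pathway list and 123 were on none. The file names genes by identifier only, and a gene name here comes from the lists. For 10 of the 27 named members no namesake on the same chromosome was found in the RefSeq table. These were MAS2, CYP76M7, KSL8, DPF, DXS3, GGPPS1, WRKY10, PR1a, RSOsPR10 and JIOsPR10. CYP76M7 had 1 namesake, which was not on chromosome 2, and the other 9 had none. These 10 names rest on the lists alone, as do names such as WRKY45 and those of the PAL and C4H genes among the other genes. Diterpenoid genes made up 19 of the 27: 7 of the 9 eligible genes of carbon supply, 4 of 5 of the momilactone cluster, 7 of 10 other diterpenoid genes and 1 of 2 regulators. No eligible gene of the lists for phenylpropanoids (13 genes), MAP kinases (3), ethylene (5), abscisic acid (6), iron (10), nitrogen (5), aquaporins (11), fermentation and sugar starvation (6), antioxidants (6), secondary wall (3) or clock (7) was a member. The members are 150 of 14024 eligible rows. At that share, 0 members on lists of this length are no result about these lists. Their median r differed, from 0.75 for phenylpropanoids, 0.68 for MAP kinases and 0.66 for antioxidants to -0.59 for iron and -0.75 for clock.

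**Figure D3:**
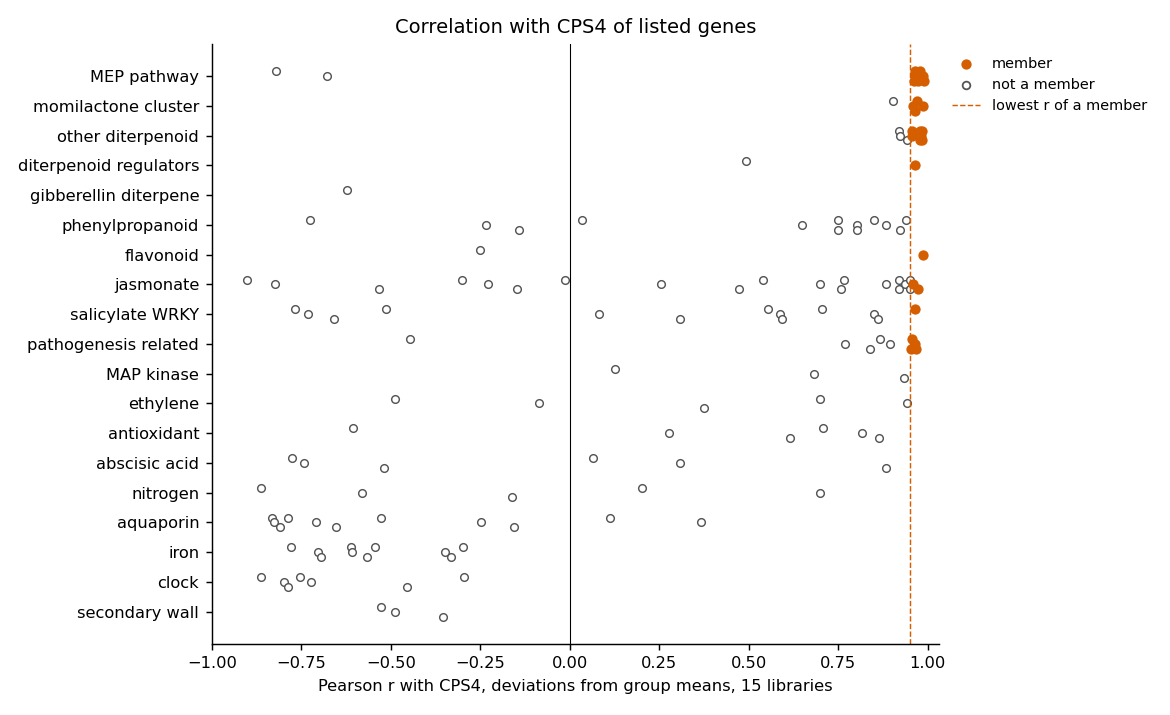
Pearson r with CPS4 (horizontal axis, deviations from group means over 15 libraries) of genes on pathway lists (rows), with members filled and the dashed line at the lowest r of a member. Members are found on the MEP, momilactone, other diterpenoid, regulator, flavonoid, jasmonate, salicylate and WRKY, and pathogenesis-related lists, while all iron, clock and secondary wall genes lie below 0.

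In the supply of carbon, the members covered most steps from the entry of the MEP pathway to geranylgeranyl diphosphate. DXS3 (Os07g0190000, r = 0.979) is listed as a form of the first enzyme, 1-deoxy-xylulose 5-phosphate synthase. Its counts were 259, 478 and 118 in Mock, 271, 413 and 79.3 in BABA, 144, 384 and 563 in ASM, 238, 238 and 100.5 in PA1x and 620.1, 680.2 and 110 in PA2x. The other forms of that enzyme had negative correlations: DXS1 (Os05g0408900) had r = -0.677 and DXS2 (Os06g0142900) r = -0.821. DXS2 counts stayed within 361 to 497 reads over the 15 libraries, highest in the library where DXS3 was lowest in PA1x and PA2x. DXR (Os01g0106900, r = 0.988) makes methylerythritol phosphate and had rank 5. Its counts were 341, 464 and 169.7 in Mock and 632, 637 and 185 in PA2x. The later steps CMK (Os01g0802100, r = 0.966), a kinase, MCS (Os02g0680600, 0.974), which forms the cyclic diphosphate, and HDS (Os02g0603800, 0.964) and HDR (Os03g0731900, 0.961), which yield the isoprene units, were members too. GGPPS1 (Os07g0580900, r = 0.989), listed as a geranylgeranyl diphosphate synthase, had rank 4 and counts of 961, 1533 and 403 in Mock, 1115, 1383 and 339 in BABA, 409.7, 993 and 1542 in ASM, 799.9, 710.4 and 337 in PA1x and 1898, 2026 and 399 in PA2x. Its order of libraries matched that of CPS4 in all groups but BABA, where replicates 1 and 2 were exchanged.

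The supply genes shared their low libraries but not an amplitude. Amplitude is given as the slope of a gene's log2 deviation on that of CPS4, where 1 means the same fold per fold of CPS4. It was 1.09 for DXS3 and 1.02 for GGPPS1, at the start and the end of the chain, and 0.79 for DXR, 0.46 for CMK, 0.69 for MCS, 0.73 for HDS and 0.54 for HDR between them. Averaged over the groups, the highest library held 4.13 times the lowest for DXS3 and 1.88 times for CMK.

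On chromosome 4, MAS2 (Os04g0179100), MAS (Os04g0179200), KSL4 (Os04g0179700) and CYP99A2 (Os04g0180400) were members, and CYP99A3 (Os04g0178400), the row next to CPS4, was not (r = 0.904, rank 460). KSL4 converts the CPS4 product to the syn-pimaradiene from which momilactones are made, and its counts were 116, 202 and 20.2 in Mock, 147, 211 and 35.7 in BABA, 20.9, 113 and 202 in ASM, 93.4, 106 and 38.9 in PA1x and 266, 296 and 49.6 in PA2x. KSL4 was the lowest of its group in the same library as CPS4 everywhere, and its slope of 1.36 was above 1. CYP99A2 (r = 0.987), a cytochrome P450 that oxidises that diene, had counts of 669, 686 and 211 in Mock, 624, 846 and 161 in BABA, 121, 425 and 881 in ASM, 652, 480.3 and 225 in PA1x and 1244, 1544 and 223 in PA2x. Its slope was 1.21. MAS (r = 0.965), the short-chain dehydrogenase that completes momilactone A, had 2152, 2159 and 436 in Mock and 3711, 3284 and 848 in PA2x, and MAS2 (r = 0.969) is listed as its neighbouring copy, so reads of the 2 genes may be shared. CYP99A3 counts were 303, 894 and 247 in Mock, 361, 320 and 156 in BABA, 325, 569.9 and 857 in ASM, 356, 501 and 175 in PA1x and 527, 551 and 158 in PA2x. CYP99A3 was also lowest in the 5 low libraries, yet Mock replicate 2 stood further above Mock replicate 1 than in CPS4, and in PA1x replicates 1 and 2 were exchanged. CYP99A2 and CYP99A3 are near copies, and their reads may be shared as well.

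Of the genes of other diterpenoid branches, CPS2 (Os02g0571100, r = 0.977), which makes ent-copalyl diphosphate for phytocassanes, had counts of 114, 138 and 45.7 in Mock, 109.7, 93 and 17.8 in BABA, 52.7, 106 and 164 in ASM, 94.3, 71.6 and 37.1 in PA1x and 175, 178 and 56.4 in PA2x. KSL7 (Os02g0570400, r = 0.983), which converts that product to the cassadiene precursor, had counts of 220.2, 275 and 129 in Mock, 213, 153 and 60.6 in BABA, 123, 282 and 471 in ASM, 185, 177 and 78.8 in PA1x and 278, 389 and 105 in PA2x. Both were lowest in the 5 libraries that were lowest in CPS4, and KSL7 had a smaller slope (0.83) than CPS2 (0.95). The neighbouring P450 genes CYP76M5 (Os02g0569000, r = 0.982), CYP76M8 (Os02g0569400, 0.978) and CYP76M7 (Os02g0569900, 0.955), which hydroxylate labdane-related diterpenes, had slopes of 1.26, 1.09 and 1.08. They are close copies whose reads may be shared. Outside the clusters, KSL8 (Os11g0474800, r = 0.955), listed as the stemarene synthase of the oryzalexin S branch, had the smallest slope of the 7 (0.67).

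CYP701A8 (Os06g0569500, r = 0.984) is a relative of the kaurene oxidase of gibberellin synthesis that acts on defence diterpenes. Its counts were 132, 154 and 39.8 in Mock, 159.7, 159 and 25.8 in BABA, 42.8, 134 and 191 in ASM, 76.5, 73.8 and 40.7 in PA1x and 246, 312 and 56.4 in PA2x. KO2 (Os06g0570100), the kaurene oxidase of the gibberellin pathway, had r = -0.622 with counts of 21.6, 25.2 and 32 in Mock and 23.4, 19.1 and 37.6 in PA2x, so in both groups its highest library was the one lowest in CYP701A8. The gibberellin genes CPS1, KS1 and KAO did not reach the minimum mean. Of the diterpenoid genes that reached it and were not members, CYP71Z7 (Os02g0570700), KSL10 (Os12g0491800) and CYP76M14 (Os01g0561600) had r of 0.943, 0.921 and 0.919, at ranks 206, 359 and 376. CYP71Z6, KSL5 and KSL6 of the chromosome 2 cluster had means under 20.

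Of the 2 listed regulators, DPF (Os01g0196300, r = 0.965), listed as a basic helix-loop-helix activator of diterpenoid phytoalexin genes, was a member. Its counts were 130.3, 208 and 88.1 in Mock, 244, 199.7 and 88.2 in BABA, 127, 242 and 280.4 in ASM, 129, 128 and 68.8 in PA1x and 236, 317 and 133 in PA2x. The slope was 0.61, below those of DXS3, GGPPS1, CPS2, KSL4 and KSL7. TGAP1 (Os04g0637000), a bZIP factor known to act on the same genes, had r = 0.492 and counts between 276 and 531.

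Listed members outside diterpenoid synthesis came from the flavonoid, jasmonate, salicylate and WRKY, and pathogenesis-related lists. CHS1 (Os11g0530600, r = 0.987), chalcone synthase at the entry to flavonoids, had rank 7 and counts of 1935, 3138 and 957 in Mock, 1922, 2360.2 and 429.6 in BABA, 391, 1494 and 3043 in ASM, 1842, 1306 and 566 in PA1x and 3881, 6221 and 763 in PA2x. Its slope of 1.25 was above 1, and the other eligible flavonoid gene, CHI (Os03g0819600), had r = -0.25. None of the 13 eligible phenylpropanoid genes upstream was a member, and they ran from r = -0.73 for PAL5 (Os04g0518100) to 0.94 for C4H4 (Os02g0467600). Of the 13, 10 had r above 0, with a median of 0.75, beside a median of -0.02 over all eligible rows. Of 21 eligible jasmonate genes 2 were members. AOS2 (Os03g0225900, r = 0.973), the allene oxide synthase of jasmonate synthesis, had 1492, 2782 and 937 in Mock and 1131, 2409 and 3857 in ASM. JAZ8 (Os09g0439200, r = 0.959), a repressor of jasmonate signalling, had a slope of 0.20. Over the 21 jasmonate genes 14 had r above 0, with a median of 0.70, and the lowest were the receptors COI1A (Os01g0853400, r = -0.82) and COI1B (Os05g0449500, -0.90).

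Of 13 eligible genes on the salicylate and WRKY list, WRKY10 (Os01g0186000, r = 0.965), listed as a WRKY transcription factor, was the member, with counts of 197, 338 and 116 in Mock and 501, 466 and 195 in PA2x. WRKY45 (Os05g0322900), a regulator of salicylate responses, had r = -0.66. On that list 9 of the 13 genes had r above 0, with a median of 0.55, and the lowest was WRKY71 (Os02g0181300) at -0.77. Of 9 pathogenesis-related genes 4 were members: PR1a (Os07g0129200, r = 0.964), RSOsPR10 (Os12g0555000, 0.955), JIOsPR10 (Os03g0300400, 0.967) and the chitinase Cht3 (Os06g0726100, 0.954). Their slopes were 0.51, 0.70, 0.55 and 0.94. Of the 9 genes, 8 had r above 0, with a median of 0.895, and the lowest was at -0.45. PR10 and PR1 genes have near copies beside them, which may share reads.

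The closest rows of all were mostly without a name here. Os03g0835900 had the highest correlation (r = 0.993), with counts of 8273, 10159 and 5429 in Mock, 7975, 7991 and 4489 in BABA, 5281, 7491 and 9739 in ASM, 7154, 6726 and 5036 in PA1x and 10387, 12002 and 5825 in PA2x. It kept the library order of CPS4 in Mock, ASM, PA1x and PA2x at a slope of 0.45. Os07g0663700 (r = 0.990, slope 1.00) and Os02g0319300 (0.990, slope 0.39) came next. Of the 20 highest, 7 were named: GGPPS1, DXR, CYP99A2, CHS1, CYP701A8, KSL7 and CYP76M5. The other 10, beside those 3, were Os12g0189300, Os07g0218700, Os02g0134400, Os02g0532500, Os02g0151300, Os06g0637400, Os08g0331000, Os02g0571900, Os10g0535800 and Os03g0571900, with r between 0.980 and 0.985.

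Over all members the slope on CPS4 had a median of 0.69 and ran from 0.11 for Os10g0320400 to 1.53 for Os11g0643100, and 33 members exceeded 1. A high correlation thus came with a wide or a narrow swing. Os11g0643100 had 132, 257 and 32 reads in Mock and 413, 489 and 45.6 in PA2x, whereas Os10g0320400 had 750.4, 814 and 733 and 804, 799 and 682. The within-group SD of log2 values had a median of 0.71 among members and 0.22 among all eligible rows. Mean levels of members ran from 20.2 (Os10g0340600) to 38531 normalised reads (Os12g0555200), with a median of 531, against 114 for all eligible rows.

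Position on the chromosome was not used by the rule. In the order of identifiers, 34 members, 35 genes with CPS4, lay within 10 rows of another and formed 12 runs. How many such runs other eligible rows would form was not counted, so the number is a description and carries no test. The chromosome 4 run held CPS4, MAS2, MAS, KSL4, CYP99A2 and Os04g0182200, which is 6 of the 9 eligible rows it spans, and the others had r of 0.904 (CYP99A3), 0.778 (Os04g0180900) and 0.926 (Os04g0181100). The chromosome 2 run held CYP76M5, CYP76M8, CYP76M7, KSL7, CPS2 and Os02g0571900, which is 6 of 7. On chromosome 7, Os07g0127500, Os07g0127600, Os07g0127700 and PR1a were all 4 of the eligible rows of their stretch, and Os07g0217600, Os07g0218200 and Os07g0218700 all 3 of theirs. The remaining 8 runs were pairs, among them RSOsPR10 with Os12g0555200. Adjacent rows in such runs can be copies of a gene whose reads are shared. By chromosome, the members were spread over all 12, with 17.3% on chromosome 1 and 16% on chromosome 2, where 14.7% and 11.9% of eligible rows lie.

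To see the tracking in libraries that had no part in the choice, 150 rows were chosen again 5 times, each time from the other 4 groups, and then looked up in the group left out. Between 116 and 126 of them were also members under the full rule. In the group left out, 147 (Mock), 148 (BABA), 141 (ASM), 145 (PA1x) and 150 (PA2x) of the 150 had their lowest value in the library where CPS4 was lowest, which is 94% to 100%, beside 35.4% to 39.1% of all eligible rows. The full order of the 3 libraries matched that of CPS4 for 142 rows in Mock, 138 in ASM and 124 in PA2x. In BABA and PA1x it matched for 58 and 83, and there the 2 higher libraries of CPS4 had 950 and 924 reads (BABA) and 828 and 714 reads (PA1x). All eligible rows matched the order in 17.5% (BABA) to 26.1% (Mock) of cases. The library lowest in CPS4 was thus the lowest for most chosen rows in every group left out. Most chosen rows were members, and members move together between libraries (median r of 0.950 over their pairs). The 150 rows of a group are therefore not separate observations. The counts and shares describe the 5 groups left out and carry no test.

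The averages of the groups, which the rule had removed, were compared next. Over the 5 group means of log2 values, the correlation with CPS4 had a median of 0.78 among members and was above 0 for all 150, from 0.12 for Os04g0613200 to 0.98 for Os07g0218200. It was above 0.8 for 65 members (43.3%). Among all eligible rows the median was 0.06, 53.1% were above 0 and 5.58% above 0.8. PA2x had the highest group mean for 122 members (81.3%, beside 20.2% of eligible rows), ASM for 22, Mock for 4, PA1x for 2 and BABA for 0. PA1x had the lowest for 99 (66%, beside 28.7%), BABA for 31, ASM for 14, Mock for 6 and PA2x for 0. Group means average the same 15 libraries, so spread between pools enters them as well, and these shares carry no test.

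Single members were tested for differences between groups with limma on log2(value + 1) over 18316 genes, with Benjamini-Hochberg adjustment at 0.05. The median member had more spread between pools than the median gene, as given above, and this spread is part of the test. Against Mock, BABA gave 0 members higher and 0 lower (0.218% and 0.0328% of all genes, 0.251% in all; 2 members at an unadjusted p under 0.05, and 0 called by edgeR and DESeq2). Against the same Mock libraries, ASM gave 2 members higher and 0 lower (3.28% and 1.26% of all genes, 4.53% in all). PA1x gave 0 higher and 0 lower (0.399% and 3.13% of all genes, 3.53% in all; 8 members at an unadjusted p under 0.05, 0 called by edgeR and 2 lower by DESeq2). PA2x gave 0 higher and 0 lower (0.764% and 0.164% of all genes, 0.928% in all; 13 members at an unadjusted p under 0.05, 0 called by edgeR and 4 higher by DESeq2). The median log2 difference of members from Mock was -0.01 for BABA, 0.10 for ASM, -0.30 for PA1x and 0.47 for PA2x, where the median of all genes was -0.01 for BABA and ASM, -0.00304 for PA1x and -0.00411 for PA2x. Above 0 were 72 members for BABA, 87 for ASM, 16 for PA1x and 145 for PA2x, beside 48.1% to 49.5% of all genes. Members move together between libraries, so these medians and counts carry no test. With libraries set to equal totals the PA1x median was -0.18 with 41 members above 0. The median of all genes was then 0.12, with 68% above 0. Scaling shifts all genes of a library nearly alike, so the members' distance of 0.29 below all genes stayed the same by construction. Without all libraries numbered 3, an alternative added after the data were seen, the median for ASM turned to -0.50 with 14 members called, all lower (132 of all genes lower), while 15 members were called lower for PA1x (578 of all genes) and 11 higher for PA2x (203 of all genes). Number 3 is the lowest library of all 150 members in Mock, PA1x and PA2x and the highest of nearly all of them in ASM. These values thus move with the deviations that chose the members and are no independent result. All 3 libraries of a treated group lay above all 3 Mock libraries for 2 members with BABA (7.67% of all genes), 5 with ASM (10.9%), 0 with PA1x (8.74%) and 4 with PA2x (7.69%). They lay below for 0 members with BABA (7.26%), ASM (8.89%) and PA2x (7.45%) and for 9 with PA1x (12.3%). The groups of most members thus overlapped with Mock in all 4 comparisons.

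**Figure D4:**
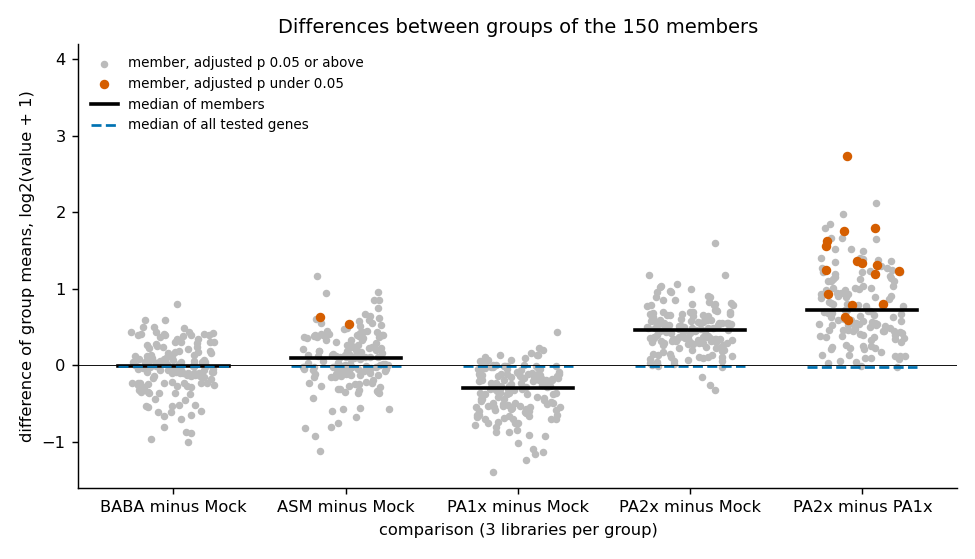
Difference of group means on the log2(value + 1) scale (vertical axis) of the 150 members in 5 comparisons of 3 against 3 libraries, with called members in orange, the members' median as a black bar and the median of all tested genes as a dashed line. The members' median is lowest for PA1x minus Mock (-0.30) and highest for PA2x minus PA1x (0.72), and called members appear for ASM minus Mock (2) and PA2x minus PA1x (16).

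The members higher with ASM than with Mock were Os10g0457600 and JAZ8. Os10g0457600 counts were 987, 1055 and 891 in Mock and 1266, 1434 and 1595 in ASM, a log2 difference of 0.55 (SE 0.12, adjusted p = 0.0165), or 1.46-fold. JAZ8 counts were 233, 247 and 196 in Mock and 314, 336 and 394 in ASM, a difference of 0.63 (SE 0.16, adjusted p = 0.0306), or 1.54-fold. The 3 ASM libraries were above all Mock libraries for both genes. Both are members of narrow swing, with slopes of 0.15 and 0.20. Each kept its call in 11 of 15 fits with 1 library left out, but most of these left out a library outside this comparison. Both lost the call without Mock replicate 1, Mock replicate 3, ASM replicate 2 or ASM replicate 3. The highest adjusted p (0.095 and 0.144) came without ASM replicate 3. With only the 6 libraries compared, 0 members were called. PR1a, which did not pass, had 5292, 7882 and 10271 in ASM and 3275, 4749 and 2405 in Mock, a difference of 1.17 (SE 0.36, adjusted p = 0.0792).

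Group means of PA2x lay above those of PA1x for 148 of the 150 members. Members move together between libraries, so the 148 are not separate observations, and neither this count nor the members' median carries a test. The median difference was 0.72 beside -0.02 for all genes, and 16 were called higher and 0 lower. That is 10.7% of the members, near the 8.31% of all genes called higher in this comparison, where 2.96% were lower and 11.3% called in all. With libraries set to equal totals, 16 members were again called higher and 0 lower, while all genes split into 1132 higher and 1134 lower in place of 1522 and 543. All 3 libraries of PA2x lay above all 3 of PA1x for 30 of the 150 members, beside 15.3% of all genes, and they lay below for 0 members, beside 12.9%. The widest called difference was that of Os04g0617500, with counts of 11.3, 11.8 and 4.53 in PA1x and 90.6, 98.7 and 26.8 in PA2x and a log2 difference of 2.73 (SE 0.67, adjusted p = 0.0133). The smallest adjusted p belonged to Os10g0457600, with 739.5, 742 and 683 in PA1x and 1487, 1505 and 1159 in PA2x, and a difference of 0.93 (SE 0.12, adjusted p = 7.85e-05). The PA2x libraries were above the PA1x libraries for both genes.

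Os10g0457600 and 3 other members kept their call in all 15 fits with 1 library left out, though most of these left out a library outside this comparison. Os05g0537100 had 522, 522 and 448 in PA1x and 1215, 1458 and 896 in PA2x, a difference of 1.23 (SE 0.19, adjusted p = 0.000281). Os05g0392700 had 485, 464 and 401 and 1300.3, 1405 and 806, a difference of 1.34 (SE 0.24, adjusted p = 0.0014). For Os07g0646800 the counts were 123, 149.8 and 98.7 and 373, 419 and 204, with a difference of 1.37 (SE 0.29, adjusted p = 0.0047). In all 4 the groups did not overlap, and replicate 3 was the lowest library of both groups, as in CPS4. Their slopes on CPS4 were between 0.15 and 0.41, below the members' median of 0.69.

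**Figure D5:**
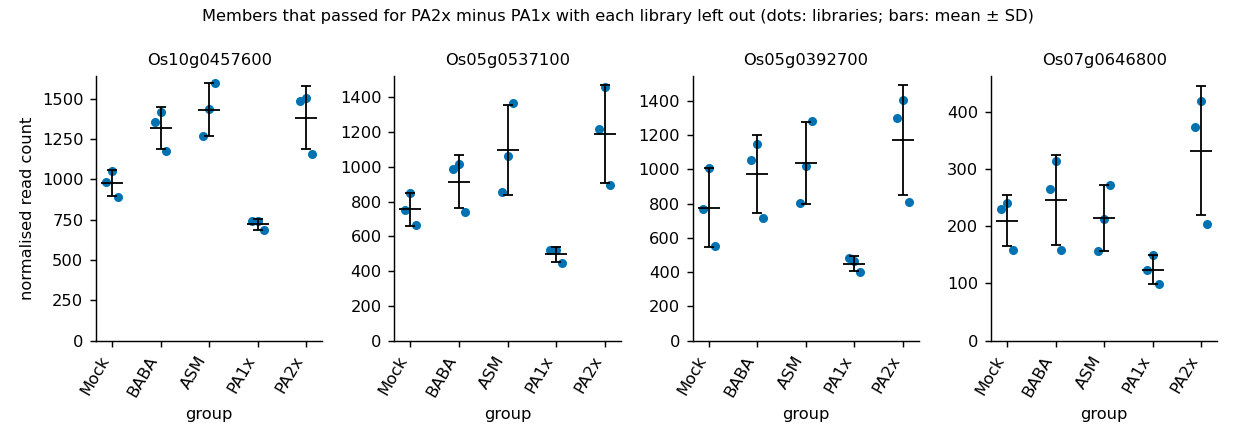
Normalised read counts (vertical axis, from 0) of 4 members in the 5 groups, with dots for libraries and bars for the mean ± SD of 3. The PA1x libraries lie below all PA2x libraries in each panel, with 683 to 742 reads in PA1x and 1159 to 1505 in PA2x for Os10g0457600.

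The remaining 11 called members were Os02g0749500, Os01g0609300, Os02g0720500, Os09g0572900, Os08g0384500, Os02g0696500, Os03g0264400, Os03g0729100, Os03g0351700, Os01g0816100 and Os08g0140300. Their differences ran from 0.60 (SE 0.14, adjusted p = 0.00946) for Os02g0749500 to 1.80 (SE 0.51, adjusted p = 0.0314) for Os08g0140300. These 11 and Os04g0617500 lost the call in at least 2 of the 15 fits with 1 library left out. Os08g0140300, Os01g0816100, Os03g0351700 and Os02g0696500 kept it in 10 of the 15, most of which left out a library outside this comparison. The adjusted p was highest without PA2x replicate 2 or PA1x replicate 3. The count of called members was 4 without PA2x replicate 2, 4 without PA1x replicate 3, 6 without PA2x replicate 1, 10 without PA1x replicate 2 and 49 without PA2x replicate 3. Without all libraries numbered 3 it was 100, while the number of all genes called hardly moved (2065 with and 2016 without). Replicate 3 is the library in which all 150 members were lowest in both PA1x and PA2x, so this count is not independent of the choice of members.

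No diterpenoid gene on the lists was called higher in any comparison. Of all genes, 0.251% were called in either direction against Mock for BABA, 4.53% for ASM, 3.53% for PA1x and 0.928% for PA2x. For PA2x minus PA1x, 8.31% were called higher and 2.96% lower. At such shares, 0 calls higher among the 27 genes tested here are no result about these genes. Over the 27 genes tested on the lists for carbon supply, the momilactone cluster, other diterpenoids and regulators, CPS4 included, 0 were called by limma in any of the 4 comparisons with Mock (1 gene each for BABA and PA2x and 0 for ASM and PA1x at an unadjusted p under 0.05, with 0 called by edgeR and 1 lower for BABA by DESeq2). Their median log2 difference was -0.10 for BABA, 0.14 for ASM, -0.28 for PA1x and 0.50 for PA2x. In PA2x minus PA1x the median was 0.87 and 24 of 27 were above 0, and the 1 call was lower: TGAP1, which is no member, with 527, 531 and 497 in PA1x and 332, 393 and 289.8 in PA2x, a difference of -0.63 (SE 0.14, adjusted p = 0.00554). The members among these genes had wide intervals. GGPPS1 differed by 1.00 (95% interval -0.43 to 2.43, adjusted p = 0.43) between PA2x and PA1x, CYP701A8 by 1.40 (95% interval -0.20 to 2.99, adjusted p = 0.299), KSL4 by 1.10 (95% interval -0.87 to 3.07, adjusted p = 0.548) and DPF by 1.04 (95% interval 0.15 to 1.93, adjusted p = 0.143). The interval of DPF alone among these 4 lay above 0 before adjustment.

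Over the 5 groups together, the moderated F test of limma called 9 members, 6% of them, beside 12.2% of all genes. CPS4 itself had an adjusted p of 0.838 in that test. Without all libraries numbered 3 the F test called 100 members, and 2077 of all genes in place of 2227. In every group the library numbered 3 is the lowest or the highest of all or nearly all members. The count of 100 is thus not independent of the choice of members.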

How the data were processed

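Each pool gave 2 µg of root RNA for a QuantSeq 3′ mRNA-Seq library, in which reads start near the 3′ end of a transcript, per the labels' protocols. The table holds a deposited signal, in which the authors scaled each library's gene counts by a factor of its own. The submitters' processing notes and the values both match the normalised counts of DESeq2. Those notes name FastQC 0.11.8, Trimmomatic 0.38, STAR 2.6.1d and DESeq2. Neither the genome build nor the annotation or strand setting is given in the sources used here; overlapping and antisense genes cannot be told apart. In all 15 libraries the values were whole multiples of 1 read (100% of them within a tolerance of 0.1), which gave size factors of 0.620 to 1.53 and the recovered totals. Replicates differed by more than counting noise, with 3.71 to 29.1 as the chi-square over its degrees of freedom for a pair. Samples were grouped by their labels.

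Members, slopes and descriptions were computed with Python 3.11.15 (pandas 2.3.3, numpy 2.4.6). Groups were compared in R 4.3.3 by limma 3.58.1, trended, two-sided and with group as its single term, in a fit of all 15 libraries to log2(value + 1). It covered 18316 genes averaging 5 or more, called at an adjusted p under 0.05. Differences on this scale understate changes of low genes. Alternatives were other pseudocounts, filters and scalings, a replicate block, single libraries left out, and edgeR 4.0.16 and DESeq2 1.42.0 on recovered reads. The test was checked on simulated data.

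The members and the 23 lists (189 genes, 187 in the file) were chosen with earlier results of these data known. Named genes were the momilactone cluster, the 20 highest correlations, every member on a list, up to 8 called members per direction and comparison, and 3 rows on each side of the threshold. Other genes are named as contrasts, or as the rest of a count, and were chosen after their values were seen. Names come from general knowledge. The RefSeq table of assembly ASM3414082v1 held 1 of the identifiers, and 18 of 28 names (27 members and CPS4) had a namesake there on the same chromosome in matching order. No sequences or promoters were used here.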

Additional observations from a re-analysis of the deposited data

How the results depend on the processing

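Counts of called members depended on single libraries more than on scaling, filter or pseudocount, under which they stayed within 1.5 times. With 1 library left out in turn, called members ran from 0 to 0 for BABA, 0 to 3 for ASM, 0 to 1 for PA1x and 0 to 4 for PA2x against Mock, 4 to 49 for PA2x minus PA1x and 3 to 20 for the F test. The members' median log2 difference ran from -0.30 to 0.41, -0.22 to 0.43, -0.64 to -0.03, 0.11 to 0.91 and 0.42 to 1.25 in the same order of the 5 comparisons, so its sign was fixed for neither BABA nor ASM. Without all libraries numbered 3, which hold the highest library of nearly all members in ASM and their lowest in the other groups, the called members were 14 for ASM (median -0.50), 15 for PA1x, 11 for PA2x, 100 for PA2x minus PA1x and 100 for the F test, beside 503, 635, 232, 2016 and 2077 of all genes. Using only the 6 libraries compared gave 0 for ASM and 4 for PA1x, and DESeq2 gave 2 for PA1x, 4 for PA2x and 14 for the F test. The counts without libraries numbered 3 are not independent of the choice of members, as said above. The cause of these changes was not tested.

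With a replicate block, 1 member was called for PA2x against Mock, 27 for PA2x minus PA1x and 17 for the F test. The numbers share no stated origin. Deviations of same-numbered libraries correlated at -0.34 to 0.40 over 30 pairs, 9 of them above 0.1, and 16 of 60 pairs of unlike number were above 0.1. Without ASM the range was -0.01 to 0.40 for same-numbered pairs and -0.37 to 0.22 for pairs of unlike number. Of 15 libraries, 8 correlated best with their own number. Whether the numbers mark a shared origin was not tested.

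Membership was stable to a pseudocount of 5 (148 of 150 shared), a minimum mean of 50 (143), the replicate block (115) and single libraries left out (119 to 138). It was 76 with Spearman correlation, 93 with no group means removed, and 74, 84 and 30 without all libraries numbered 1, 2 or 3. The correlation of CPS4 with depth turned from -0.20 to 0.22 without BABA replicates 1 and 3 and passed in neither case. Setting libraries to equal totals moved the median of all genes to 0.12 for PA1x minus Mock and to -0.17 for PA2x minus PA1x. Relative to that median the members lay at -0.29 and 0.75 under both scalings, as they must where scaling shifts all genes of a library nearly alike. For single called members, 412 refits kept the call, 56 lost it and none changed sign. Most of these refits kept every library of the comparison concerned, so the 412 do not measure how far a call depends on those libraries. By call, between 10 and 15 of the 15 fits with 1 library left out passed, and most of these 15 left out a library outside the comparison. The median member had a within-group SD of 0.71 on the log2 scale, which limits the differences that 3 pools a group can show.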

Other observations

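Lists that ran against CPS4 hold no members, and they are given here as values. All 7 eligible clock genes had r below 0 with CPS4 within groups (median -0.75), from -0.30 for PRR59 (Os11g0157600) to -0.86 for PRR73 (Os03g0284100), and LHY (Os08g0157600), a morning-expressed transcription factor, had -0.75. Over all eligible rows 48.9% had r above 0. All 10 iron genes were below 0 as well (median -0.59). Among them, the uptake transporter IRT1 (Os03g0667500) had -0.35 and the metal transporter NRAMP1 (Os07g0258400) -0.78. Of 11 aquaporin genes 9 were below 0 (median -0.65), with PIP1;3 (Os02g0823100) at -0.83. These correlations share the 15 libraries with those of the members and carry no test.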
